A study of Mus musculus with 6 samples.

Results

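The genes described here are 8 matricellular glycoproteins and fibronectin, the secreted glycoproteins that fibroblasts place between collagen and the cell surface. They were taken by gene symbol, matched to the Ensembl identifiers of the count table, and are periostin (Postn), transforming growth factor beta induced (Tgfbi), osteonectin (Sparc), thrombospondins 1 and 2 (Thbs1, Thbs2), tenascin C (Tnc), fibronectin (Fn1), osteopontin (Spp1) and SPARC related modular calcium binding 2 (Smoc2). These were 9 of the 54752 genes in the table. They were chosen by symbol and not by a measured value, though earlier results of these data were known at the time. RNA-seq counts came from NIH/3T3 cells, an established line of mouse embryonic fibroblasts, in 3 groups of 2 replicates, cultured for 72 h. The first group received PBS and is called vehicle. The second received TGF-β1 at 1 ng/ml with DMSO, the solvent, and is called the DMSO group. The third received TGF-β1 at 1 ng/ml with BI6727 (volasertib), an inhibitor of the mitotic kinase PLK1, at 5 μM, and is called the BI6727 group. The design asks which genes TGF-β1 changed, and whether BI6727 changed them again in its presence. The labels give the vehicle as PBS, while the study's text gives plain medium in one place and DMSO in another. If the vehicle held no DMSO, the contributions of TGF-β1 and DMSO to a difference from vehicle cannot be told apart. No group received BI6727 without TGF-β1. The model was a single line in culture with no other cell type added. The labels do not say whether the replicates of a group were separate cultures, and the study's methods speak of replicates and biological replicates in numbers that differ from each other, so p-values measure the spread between these libraries, which may be technical.

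Matricellular proteins are secreted into the matrix but, unlike collagens, are not its main structural fibres. They bind matrix fibres, growth factors and cell surface receptors, and many are produced strongly in wounds and fibrotic tissue and weakly in resting adult tissue. Fibronectin is a fibre-forming protein that cells pull into fibrils through integrins, and TGF-β is a classical inducer of fibronectin, periostin, tenascin C and thrombospondin 1 in fibroblasts. Thrombospondin 1 can in turn release active TGF-β from its latent complex.

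Library totals ranged from 18362378 to 24452153 counts on genes, and 18911 to 19891 genes had counts in a library. Values are normalized CPM, counts brought to a common library size with TMM scaling. In total 9518 genes had at least 10 CPM in more than 3 libraries and were tested, 8 of the 9 glycoprotein genes among them. Tgfbi passed 10 CPM in the vehicle libraries alone, so its tests come from a fit with edgeR's own filter, filterByExpr, which kept 14604 genes. The word called is used for a gene past both thresholds of the test, a fold change of more than 2 and a Benjamini-Hochberg adjusted p under 0.01. Acta2, the smooth muscle actin of myofibroblasts, rose 4.94-fold in the DMSO group compared to vehicle (edgeR adjusted p = 2.71e-05). Of the fibroblast markers, 8 of 8 had over 3 counts in some library, and their summed level was 6154 to 7863 CPM in the 6 libraries. Most of this sum was Vim, and Fap passed 3 counts in DMSO replicate 1 alone, with 10 counts. Pdgfra was at 283 and 265 CPM in vehicle, 96.3 and 54.2 with DMSO, and 79.6 and 77.9 with BI6727. Pdgfrb, Thy1 and Col1a2 were also lower than vehicle in each library with TGF-β1. Vim was higher in each. Col1a1 was above vehicle in both DMSO libraries and between the vehicle libraries with BI6727, and Col3a1 lay on both sides of vehicle. The 4 epithelial markers summed to at most 0.890 CPM, with Krt5 at 0. The 4 endothelial markers summed to at most 3.77 CPM with Kdr at 0, and the 5 leukocyte and macrophage markers to at most 2.70 CPM with Adgre1, C1qa and Cd3e at 0. The 3 osteoblast markers, with Ibsp at 0, summed to at most 0.415 CPM in vehicle, 2.22 in DMSO and 3.89 in BI6727 libraries. The 3 smooth muscle markers, mostly Smtn, summed to 34.5 to 39.2, 73.7 to 90.3 and 67.3 to 79.3 CPM in the same order. These marker levels moved with the groups, and their part in the results below was not tested. In such bulk RNA, fewer cells of a type and less RNA per cell cannot be told apart.

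The 2 libraries of the DMSO group stood further apart than those of the other groups, and they are given separately throughout. The SD of the log2 difference between replicates over the 9518 genes was 0.38 in the DMSO group, 0.16 in vehicle and 0.15 in the BI6727 group. A difference of more than 1 on the log2 scale was found for 126 genes in the DMSO group, 7 in vehicle and 2 in the BI6727 group. Part of it followed gene length, and with each library's trend on length removed the SD in the DMSO group was 0.28. The 9 genes together took 0.470% of counts in DMSO replicate 1 and 0.245% in DMSO replicate 2. In the vehicle libraries they took 0.533% and 0.481%, and in the BI6727 libraries 0.368% and 0.385%.

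The bases just upstream of the start were read for the genes called between the DMSO group and vehicle, to show what precedes genes that moved in opposite directions. RefSeq windows on GRCm38.p6 were available here for 6 of the 9 genes and not for Thbs1, Fn1 and Smoc2. The 250 bases before the RefSeq start are printed 5′ to 3′ for Postn (chr3:54360857-54361106, plus strand), which rose, and for Thbs2 (chr17:14694263-14694512, minus strand) and Spp1 (chr5:104434861-104435110, plus strand), which fell. These windows ended within 27 bases of the deposited gene start. Capitals mark 2 motifs, the SMAD half-site CAGAC or its other strand GTCTG, and the TATA box TATAAA or its other strand TTTATA.
Postn: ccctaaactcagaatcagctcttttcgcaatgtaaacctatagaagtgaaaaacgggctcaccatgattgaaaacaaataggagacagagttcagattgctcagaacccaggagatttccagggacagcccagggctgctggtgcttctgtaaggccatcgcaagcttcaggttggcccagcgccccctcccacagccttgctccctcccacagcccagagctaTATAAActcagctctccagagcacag
Thbs2: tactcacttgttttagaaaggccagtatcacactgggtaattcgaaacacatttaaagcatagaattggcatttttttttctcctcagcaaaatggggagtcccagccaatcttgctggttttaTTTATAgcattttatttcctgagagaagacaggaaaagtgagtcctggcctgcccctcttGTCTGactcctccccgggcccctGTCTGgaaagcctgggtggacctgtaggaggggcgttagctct
Spp1: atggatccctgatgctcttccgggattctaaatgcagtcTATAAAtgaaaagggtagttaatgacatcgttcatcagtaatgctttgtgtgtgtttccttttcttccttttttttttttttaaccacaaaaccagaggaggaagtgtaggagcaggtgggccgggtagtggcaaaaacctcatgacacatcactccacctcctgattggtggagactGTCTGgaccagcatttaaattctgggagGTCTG
The SMAD half-site, the short element that SMAD proteins of the TGF-β pathway bind, was absent from the Postn window and present at 2 places each in those of Thbs2 and Spp1. Of the 6 windows, 4 held it (Tgfbi, Sparc, Thbs2 and Spp1), beside 42.2% of 32851 windows of the same length in the table. The RefSeq start used for Sparc lies 3103 bases from the outermost start in the deposited annotation, and that of Tgfbi 63 bases. A TATA box lay 26 bases before the start of Postn, and 4 of the 6 windows held one somewhere (Postn, Thbs2, Tnc and Spp1), beside 12.4% of all windows. The AP-1 letters TGANTCA, which read the same on both strands, were in 0 of the 6 and in 6.75% of all windows, and the TEAD letters GGAATG or CATTCC in 0 of the 6 and in 12.6%. No matches overlapped in these windows, and a match is a description of the sequence, not a binding site.

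In vehicle cells the 9 genes spanned a wide range of levels. Per length of exon (RPKM, normalized CPM per kilobase), Spp1 stood first at 904 RPKM, followed by Thbs2 at 197, Sparc at 170 and Fn1 at 118. Thbs1 at 13.0 and Tnc at 12.8 RPKM came next, and their libraries overlapped (10.9 to 15.2 and 11.4 to 14.2), so that these neighbours did not differ beyond their spread. Tgfbi at 3.11, Smoc2 at 2.06 and Postn at 0.859 RPKM were lowest. Osteopontin RNA was thus 1052-fold above periostin RNA per length, and apart from Thbs1 and Tnc no neighbours in the order overlapped.

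The order was different in the DMSO group, where Postn had passed Smoc2 and Tgfbi, and Thbs1 lay beside Thbs2. The means were 337 RPKM for Spp1, 162 for Fn1, 93.5 for Sparc, 51.8 for Thbs1, 49.6 for Thbs2, 14.4 for Tnc, 5.65 for Postn, 2.43 for Smoc2 and 1.45 for Tgfbi. Fn1 (94.5 and 229 RPKM) overlapped with Sparc (83.0 and 104), and Thbs1 (40.2 and 63.3) with Thbs2 (38.9 and 60.4). In the BI6727 group no neighbours overlapped, at 307 RPKM for Spp1, 191 for Fn1, 75.6 for Sparc, 65.5 for Thbs2, 35.1 for Thbs1, 13.7 for Tnc, 2.01 for Smoc2, 1.45 for Postn and 0.632 for Tgfbi.

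**Figure D1:**
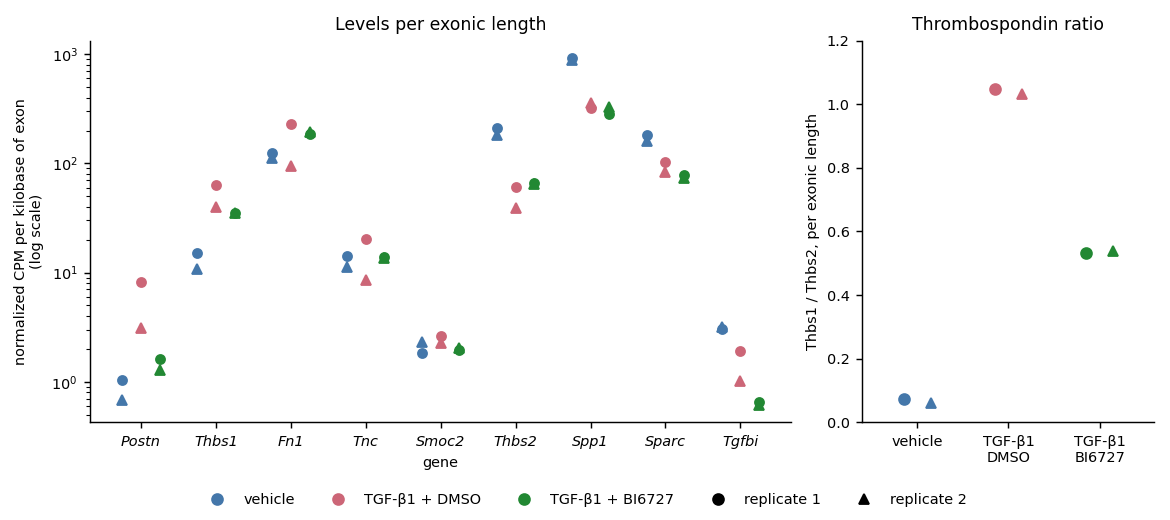
Left, normalized CPM per kilobase of exon (log scale) of the 9 genes, with 1 point per library, coloured by group and shaped by replicate. Right, the ratio of Thbs1 to Thbs2 per length in each library (linear axis), which is near 0 in vehicle, at 1.05 and 1.03 in the DMSO libraries and at 0.533 and 0.539 with BI6727.

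Compared to vehicle, 2 of the 8 genes tested were called higher in the DMSO group, Postn and Thbs1, and 2 were called lower, Thbs2 and Spp1. Of all 9518 genes 5.1% were called in this comparison, 2.56% higher and 2.53% lower. The libraries of the groups did not overlap for 5 of the 8 genes, beside 62.9% of all genes. Of these 5, 2 were higher and 3 lower, beside 29.8% and 33.1% of all genes. The median log2 fold change was 0.20 over the 8 genes and -0.0045 over all genes tested.

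Postn (chr3:54361109-54391037 in mm10, plus strand) encodes periostin, a fasciclin-domain protein that binds integrins and collagen and marks activated fibroblasts. It was at 9.04 and 5.92 CPM in the vehicle libraries, 71.6 and 26.8 in DMSO replicates 1 and 2, and 14.0 and 11.3 in the BI6727 libraries. Both DMSO libraries lay above all others, replicate 1 far above replicate 2, and the BI6727 libraries lay between vehicle and DMSO. Raw counts were 174 and 130, 1482 and 556, and 252 and 272 in the same order. The DMSO group was 6.60-fold above vehicle (log2 fold change 2.72, SE 0.46, 95% interval 1.64 to 3.80, edgeR adjusted p = 0.00651). Taken alone against the vehicle mean, DMSO replicate 1 was 9.57-fold and replicate 2 was 3.58-fold higher.

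Thbs1 (chr2:118111876-118127133, plus strand) encodes thrombospondin 1, the trimeric activator of latent TGF-β. Its levels were 92.1 and 66.1 CPM in vehicle, 385 and 244 in DMSO replicates 1 and 2, and 214 and 212 in the BI6727 libraries. The 3 groups did not overlap, with DMSO highest and vehicle lowest. The DMSO group was 3.98-fold above vehicle (log2 fold change 1.99, SE 0.24, edgeR adjusted p = 0.00143). On the other strand Gm29233 overlaps 3.42% of its exonic bases, and whether reads were assigned by strand is not given in the sources used here.

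Thbs2 (chr17:14665500-14694235, minus strand) encodes thrombospondin 2, a trimer of the same subgroup that inhibits angiogenesis and lacks the TGF-β activating sequence of thrombospondin 1. It was at 1483 and 1275 CPM in vehicle, 423 and 272 in DMSO replicates 1 and 2, and 462 and 454 in the BI6727 libraries. All 4 libraries with TGF-β1 lay far under both vehicle libraries, and both BI6727 libraries lay above both DMSO libraries. Thbs2 fell 3.97-fold in the DMSO group compared to vehicle (log2 fold change -1.99, SE 0.21, edgeR adjusted p = 0.000823). The 2 thrombospondins thus moved in opposite directions. Against the vehicle mean, DMSO replicate 1 had Thbs1 4.86-fold higher and Thbs2 3.26-fold lower, and DMSO replicate 2 had Thbs1 3.09-fold higher and Thbs2 5.06-fold lower.

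The ratio of Thbs1 to Thbs2 per length, a quantity chosen after the values were seen and given without a test, does not depend on library scaling. It was 0.0716 and 0.0598 in vehicle, 1.05 and 1.03 in DMSO replicates 1 and 2, and 0.533 and 0.539 in the BI6727 libraries. Thbs2 RNA was thus 14.0-fold and 16.7-fold above Thbs1 RNA in the vehicle libraries, level with it in the DMSO libraries and 1.87-fold and 1.86-fold above it with BI6727. The DMSO replicates, which differed 1.57-fold and 1.55-fold in the 2 genes, were alike in their ratio. The sum of both thrombospondins was 227 and 193 RPKM in vehicle, 124 and 79.1 with DMSO and 101 and 99.9 with BI6727, so it was lower in all 4 libraries with TGF-β1.

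Spp1 (chr5:104435118-104441050, plus strand) encodes osteopontin, an acidic phosphoprotein that binds αv integrins and CD44 and acts as a cytokine as well as a matrix protein. Its levels were 1520 and 1460 CPM in vehicle, 525 and 586 in DMSO replicates 1 and 2, and 468 and 545 in the BI6727 libraries. The 4 libraries with TGF-β1 lay together, well under vehicle, and the DMSO and BI6727 libraries overlapped. Spp1 fell 2.68-fold in the DMSO group compared to vehicle (log2 fold change -1.42, SE 0.12, edgeR adjusted p = 0.000412), and it was the gene of the 9 that did not have its higher value in DMSO replicate 1. On the same strand Gm42793 overlaps 18.8% of its exonic bases, and 11.6% of its 50-base windows occur in other genes, so its count is less certain than those of the others.

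Sparc (chr11:55394500-55423183, minus strand) encodes osteonectin, a collagen-binding protein that takes part in collagen fibril assembly. It was at 684 and 603 CPM in vehicle, 394 and 314 in DMSO replicates 1 and 2, and 296 and 277 in the BI6727 libraries. The groups did not overlap, in the order vehicle, DMSO, BI6727. Its difference between DMSO and vehicle passed the adjusted p but not the fold threshold, at 1.82-fold lower (log2 fold change -0.86, SE 0.14, edgeR adjusted p = 0.00480), and without DMSO replicate 1 it was called (log2 fold change -1.04, edgeR adjusted p = 7.07e-09), in a fit where the lone DMSO library is assumed to vary like the other groups. Without a fold threshold 5 of the 8 genes passed, beside 9.82% of all genes.

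Tgfbi (chr13:56609523-56639562, plus strand) encodes a fasciclin-domain protein related to periostin that was first found as a TGF-β induced transcript. Its levels were 11.5 and 11.9 CPM in vehicle, 7.15 and 3.80 in DMSO replicates 1 and 2, and 2.45 and 2.32 in the BI6727 libraries. The groups did not overlap, with vehicle highest and BI6727 lowest. In the fit with filterByExpr the difference between DMSO and vehicle was not called (log2 fold change -1.09, SE 0.28, edgeR adjusted p = 0.0281), beside 5.98% of the 14604 genes called in that fit. With no filter beyond 1 count it was called (log2 fold change -1.09, edgeR adjusted p = 5.26e-05), in a fit that called 1231 of 24904 genes. That fit also lowered the edgeR adjusted p of Postn from 0.00651 to 1.15e-43 and of Thbs1 from 0.00143 to 1.93e-47. The call of Tgfbi therefore rests on this setting. Raw counts were 222 and 262 in vehicle, 148 and 79 with DMSO, and 44 and 56 with BI6727, so it had the fewest counts of the 9 genes with TGF-β1.

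Fn1 (chr1:71585520-71653200, minus strand) encodes fibronectin. It was at 1441 and 1323 CPM in vehicle, 2676 and 1104 in DMSO replicates 1 and 2, and 2180 and 2277 in the BI6727 libraries. DMSO replicate 1 was the highest and DMSO replicate 2 the lowest of all 6 libraries, so the DMSO group enclosed both others. Its difference from vehicle was not called (log2 fold change 0.45, SE 0.35, 95% interval -0.37 to 1.27, edgeR adjusted p = 0.374). Without DMSO replicate 2 the log2 fold change was 0.96, and without DMSO replicate 1 it was -0.33. In these fits the direction of fibronectin in the DMSO group thus depended on which library was used. In 12 other fits, which kept both DMSO libraries or entered the trends on gene length as offsets, the log2 fold change stayed between 0.098 and 0.96. Apol7d on the other strand overlaps 2.5% of its exonic bases.

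Tnc (chr4:63959785-64047015, minus strand) encodes tenascin C, a large hexameric protein that modulates adhesion to fibronectin. Its levels were 111 and 88.3 CPM in vehicle, 158 and 66.1 in DMSO replicates 1 and 2, and 108 and 105 in the BI6727 libraries. As for Fn1, the DMSO replicates were the highest and the lowest of the 6 libraries. The difference from vehicle was not called (log2 fold change 0.18, SE 0.35, 95% interval -0.64 to 0.99, edgeR adjusted p = 0.732), at 0.69 without DMSO replicate 2 and -0.59 without DMSO replicate 1. The antisense gene 8030451A03Rik overlaps 2.26% of its exonic bases.

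Smoc2 (chr17:14279506-14404790, plus strand) encodes a calcium-binding relative of osteonectin that modulates growth factor signalling. It was at 12.8 and 15.9 CPM in vehicle, 18.1 and 15.7 in DMSO replicates 1 and 2, and 13.7 and 14.2 in the BI6727 libraries. These levels were close together, with a range of 0.50 on the log2 scale over all 6 libraries, the narrowest of the 8 genes tested. Between DMSO and vehicle the log2 fold change was 0.23 (SE 0.16, 95% interval -0.15 to 0.62, edgeR adjusted p = 0.329).

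**Figure D2:**
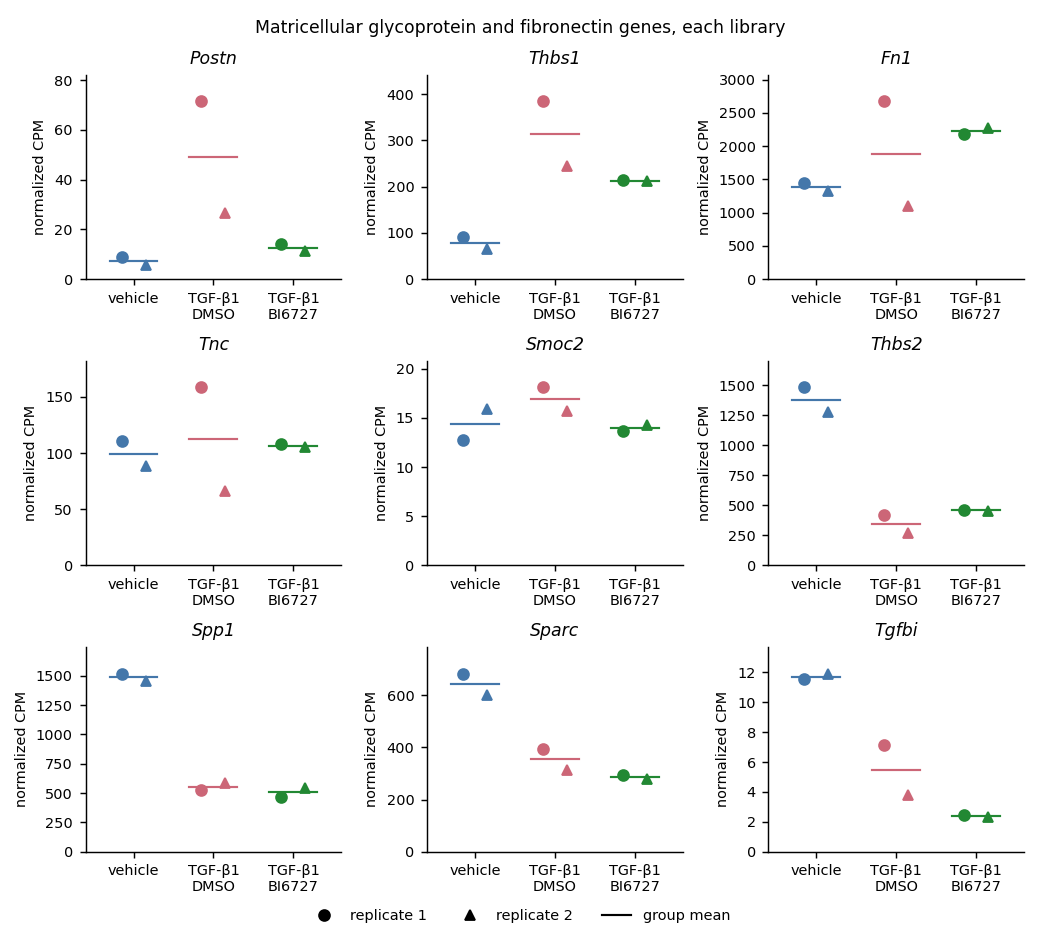
Normalized CPM (linear axis from 0) of each of the 9 genes by group, 1 panel per gene, with a circle for replicate 1, a triangle for replicate 2 and a line at the group mean. Fn1 and Tnc have both their highest and lowest library in the DMSO group, while Thbs2 and Spp1 have their 2 vehicle libraries well above the other 4.

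The 4 calls between DMSO and vehicle depended on how many vehicle libraries were in the fit. Without vehicle replicate 1 or without vehicle replicate 2, 0 of the 8 genes were called by edgeR, and the calls over all 9518 genes fell from 485 to 127 and 161. In these fits 5 of the 8 had an unadjusted p under 0.05, as with the 6 libraries, where 37.8% of all genes did, and the highest adjusted p of the 4 genes was 0.0877 for Postn, 0.0284 for Thbs1, 0.0194 for Thbs2 and 0.0144 for Spp1. Over all fits with a library left out, the log2 fold change stayed between 1.62 and 2.30 for Thbs1, -2.34 and -1.69 for Thbs2, and -1.49 and -1.35 for Spp1. DESeq2 and voom with sample quality weights were run on all 6 libraries and each called 4 of the 8. Without BI6727 replicate 1 or without BI6727 replicate 2, which share the estimate of spread, 3 were called, and Postn was not (edgeR adjusted p = 0.0170 for each). The Postn log2 fold change was 1.84 without DMSO replicate 1 and 3.28 without DMSO replicate 2, and it was called in both.

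With BI6727, 4 of the 8 genes were called against vehicle, Thbs1 higher and Thbs2, Spp1 and Sparc lower. Of all 9518 genes 5.31% were called in this comparison, 2.34% higher and 2.96% lower. The groups did not overlap for 6 of the 8 genes, beside 76.8% of all genes, with 3 higher (38.4% of all genes) and 3 lower (38.3%). The median log2 fold change was 0.031 over the 8 genes and 0.0029 over all genes tested. This comparison shares the vehicle libraries with the previous one, and the comparisons are not independent.

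Thbs1, the activating thrombospondin, was 2.70-fold above vehicle with BI6727 (log2 fold change 1.43, SE 0.23, edgeR adjusted p = 0.00508). Thbs2 fell 3.01-fold (log2 fold change -1.59, SE 0.20, edgeR adjusted p = 0.00191), Spp1 fell 2.94-fold (log2 fold change -1.56, SE 0.13, edgeR adjusted p = 0.000248) and Sparc fell 2.25-fold (log2 fold change -1.17, SE 0.14, edgeR adjusted p = 0.00122). Tgfbi fell 4.86-fold in the fit with filterByExpr (log2 fold change -2.28, SE 0.31, edgeR adjusted p = 0.00133), in which 6.22% of genes were called. The 2 fasciclin-domain genes thus stood on different sides of vehicle with BI6727, with Postn at 1.69-fold its vehicle level but not called (log2 fold change 0.76, SE 0.46, 95% interval -0.33 to 1.84, edgeR adjusted p = 0.274).

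Fn1 lay above vehicle in both BI6727 libraries without being called (log2 fold change 0.69, SE 0.35, 95% interval -0.14 to 1.51, edgeR adjusted p = 0.196). This SE comes from a spread estimated over all 3 groups. The SD of Fn1 was 1112 CPM in the DMSO group, beside 68.8 with BI6727 and 83.3 in vehicle. With libraries left out its log2 fold change stayed between 0.63 and 0.75. Tnc (log2 fold change 0.10, 95% interval -0.71 to 0.92) and Smoc2 (log2 fold change -0.04, 95% interval -0.43 to 0.35) overlapped with vehicle. The interval of Tnc still allows a change near the fold threshold, but it too includes the spread of the DMSO group. The SD of Tnc was 65.3 CPM there, beside 2.22 with BI6727 and 15.8 in vehicle. Leaving out either vehicle library or either BI6727 library left 1 call of the 4, Spp1, while the calls over all 9518 genes fell from 505 to between 163 and 224. The log2 fold change stayed between 1.21 and 1.69 for Thbs1, -1.69 and -1.48 for Thbs2, and -1.26 and -1.08 for Sparc over all fits with a library left out. The highest edgeR adjusted p in those fits was 0.0654 for Thbs1, 0.0350 for Thbs2 and 0.0277 for Sparc, and 4 of the 8 genes had an unadjusted p under 0.05 in each, as with the 6 libraries, where 37.7% of all genes did.

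**Figure D3:**
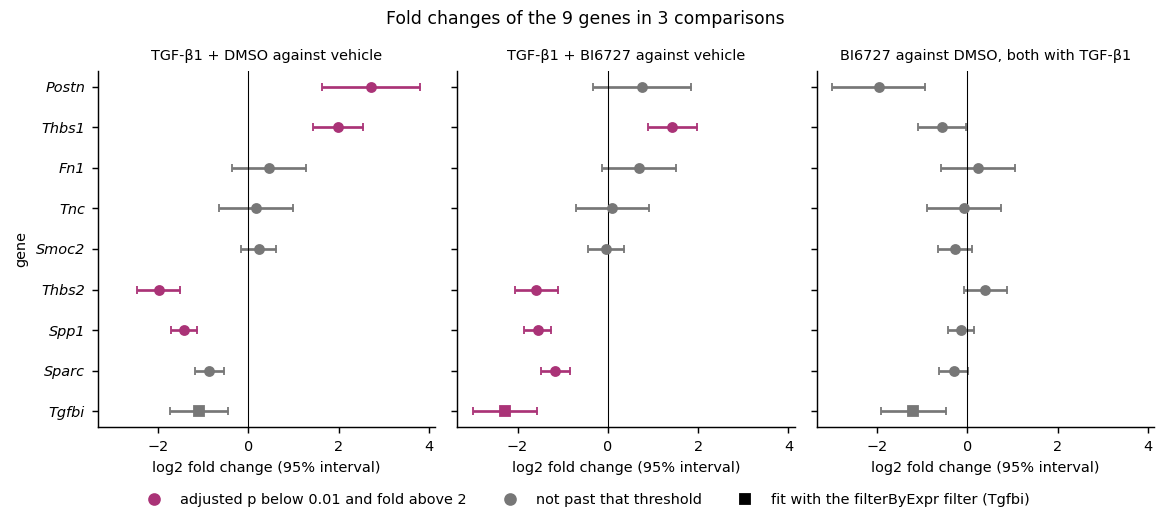
Log2 fold changes of the 9 genes in the 3 comparisons, with 95% intervals from edgeR's quasi-likelihood fit (filterByExpr fit for Tgfbi), with purple marks for genes past both thresholds and grey for the others. Postn and Thbs1 lie to the right of 0 and Thbs2 and Spp1 to the left in the DMSO group against vehicle, and no mark is purple between BI6727 and DMSO.

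Within the cells given TGF-β1, between BI6727 and DMSO, edgeR called 0 of the 8 genes, and 0% of all 9518 genes. An unadjusted p under 0.05 was found for 2 of the 8, Postn and Thbs1, beside 6.68% of all genes, and the smallest adjusted p of the 8 was 0.569. DESeq2 called 1 of the 8, Postn, among 11 of all 9518 genes, and voom with sample quality weights called 0 of the 8 and 1 of all genes. The libraries of the groups did not overlap for 5 of the 8 genes, beside 34.1% of all genes, with 4 lower (17.1% of all genes) and 1 higher (17%). The median log2 fold change was -0.20 over the 8 genes and -0.0028 over all genes tested.

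Postn had the largest difference, 3.90-fold lower in mean with BI6727 than with DMSO (log2 fold change -1.96, SE 0.44, 95% interval -3.00 to -0.93, edgeR adjusted p = 0.569). Both BI6727 libraries, at 14.0 and 11.3 CPM, lay below both DMSO libraries, at 71.6 and 26.8. Against DMSO replicate 2 alone the log2 fold change was -1.09 (edgeR adjusted p = 0.000463) and against DMSO replicate 1 alone -2.52 (edgeR adjusted p = 3.46e-08), and Postn was called both times, again with the lone DMSO library assumed to vary like the others. The call for Postn thus depended on whether the spread between the DMSO libraries entered the fit.

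Thbs1 lay lower in each BI6727 library than in either DMSO library (log2 fold change -0.56, SE 0.23, 95% interval -1.09 to -0.03, edgeR adjusted p = 0.734), and Thbs2 was higher in both (log2 fold change 0.40, SE 0.20, 95% interval -0.07 to 0.87, edgeR adjusted p = 0.759). Each thrombospondin thus lay nearer to its vehicle level with BI6727 than with DMSO, by differences that did not pass the test. Sparc (log2 fold change -0.31, 95% interval -0.62 to 0.01) and Smoc2 (log2 fold change -0.27, 95% interval -0.66 to 0.11) were lower in both BI6727 libraries, Sparc on the far side of DMSO from vehicle. Tgfbi was lower as well (log2 fold change -1.19, SE 0.32, edgeR adjusted p = 0.546 with filterByExpr, 0.00202 and called with no filter beyond 1 count), also further from vehicle. The fit with no filter also lowered the edgeR adjusted p of Postn, from 0.569 to 7.50e-23, so this call of Tgfbi rests on that setting.

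For Fn1 and Tnc the BI6727 libraries lay between the 2 DMSO libraries, so the sign of their difference depended on the DMSO library. The Fn1 log2 fold change was 0.24 with both (95% interval -0.58 to 1.06, edgeR adjusted p = 0.909), 1.02 without DMSO replicate 1 (edgeR adjusted p = 7.59e-08, called) and -0.28 without DMSO replicate 2. For Tnc it was -0.07 with both (95% interval -0.89 to 0.74), 0.69 without DMSO replicate 1 and -0.58 without DMSO replicate 2. Spp1 overlapped between the groups (log2 fold change -0.13, 95% interval -0.42 to 0.15), and its interval lies within the fold threshold.

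Postn, Fn1 and Tnc were among the genes that differed most between the DMSO replicates. DMSO replicate 1 exceeded replicate 2 by 1.42 on the log2 scale for Postn, 1.28 for Fn1 and 1.26 for Tnc. Among the 9518 genes these ranked 5th, 22nd and 26th by size, so 0.042%, 0.221% and 0.263% of genes had a larger difference. Thbs1 differed by 0.65, Thbs2 by 0.63, Sparc by 0.33 and Smoc2 by 0.21, while Spp1 was at -0.16, and 8.25% of genes had a larger difference than Thbs1, 36.8% than Sparc and 66.2% than Spp1. Tgfbi, which was not ranked because it did not pass the filter, was at 7.15 and 3.80 CPM in DMSO replicates 1 and 2. The higher value was in DMSO replicate 1 for 8 of the 9 genes and for 51.2% of all genes. In vehicle 7 of the 9 and in the BI6727 group 6 of the 9 were higher in replicate 1, with Postn again the furthest apart in vehicle at 0.61.

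Part of this difference between the DMSO replicates followed gene length, since long genes were low in DMSO replicate 2 and short genes high. With each library's length trend removed the difference was 1.14 for Postn, 0.86 for Fn1 and 1.04 for Tnc, and 0.137% of genes still had a larger one than Tnc. The exonic lengths were 8702 bases for Postn, 11685 for Fn1 and 7772 for Tnc, and 1648 for Spp1. When the length trends were entered as offsets in the fit, the Fn1 log2 fold change against vehicle was 0.59 in the DMSO group (edgeR adjusted p = 0.0543) and 0.78 with BI6727 (edgeR adjusted p = 0.0170), and neither was called. What set the DMSO replicates apart was not tested.

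**Figure D4:**
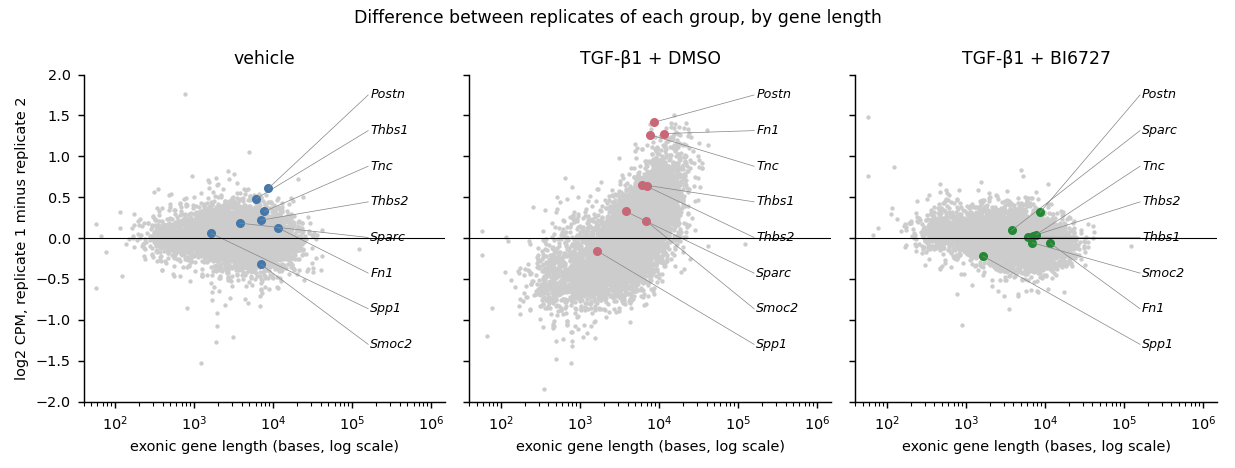
Difference between replicates 1 and 2 in log2 CPM against exonic gene length (bases, log scale) in each group, with all 9518 tested genes in grey and the 8 tested glycoprotein genes in colour. In the DMSO group Postn, Fn1 and Tnc lie at 1.42, 1.28 and 1.26, near the upper edge of a cloud that rises with length.

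The genes whose pattern over the 6 libraries was most like each of these were found by the root mean square difference of log2 CPM, each gene centred on its own mean. For Fn1 they were Igf2r (0.11), Nav1 (0.13) and Dst (0.13), all genes of long transcripts at 9308, 17303 and 41155 exonic bases. For Postn the nearest were Pde1b (0.47), Thbs1 (0.57) and Creb3l1 (0.63), so no tested gene came close to its pattern. For Thbs2 they were Nid1 (0.11), Pdgfra (0.15) and Ppp1r12b (0.15), for Thbs1 Mical1 (0.09), Creb3l1 (0.18) and Ppp1r13l (0.21), and for Spp1 Ifi202b (0.09), Crabp1 (0.10) and Cdc42ep2 (0.10). For Tnc they were Zfp142 (0.15), Bmpr2 (0.16) and Atxn1 (0.16), for Sparc Rbbp9 (0.05), Fzd1 (0.05) and Matn2 (0.06), and for Smoc2 Ttc7 (0.05), Kif1c (0.07) and Reps1 (0.07). The libraries share depth and the length trend, and likeness is a description without a test. Exons of other genes cover 15.0% of Mical1 and 18.5% of Zfp142, and at most 6.5% of the others.

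A list of 37 related matrix glycoproteins held the other thrombospondins, tenascins and osteonectin relatives, with matrilins, emilins and others. Of these 14 were tested, and 6 were at 0 in all libraries. Compared to vehicle, 2 were called higher and 2 lower in the DMSO group, 28.6% of those tested, beside 5.1% of all genes. Edil3, an integrin ligand, rose from 27.6 and 27.8 CPM to 79.0 and 53.6 (log2 fold change 1.26, edgeR adjusted p = 0.00374), and Igfbp7 rose from 153 and 121 to 294 and 294 (log2 fold change 1.10, edgeR adjusted p = 0.00400), with 7.03% of its exonic bases overlapped by Polr2b on the other strand. Olfml3 fell from 131 and 109 to 28.9 and 21.6 CPM (log2 fold change -2.25, edgeR adjusted p = 0.000206), and Emilin2, an elastic fibre glycoprotein, fell from 220 and 207 to 92.8 and 78.3 (log2 fold change -1.32, edgeR adjusted p = 0.000341). The list's median log2 fold change was -0.28. With BI6727, 4 were called lower than vehicle and 0 higher, beside 2.96% and 2.34% of all genes. The list's median was then -0.58, and the largest falls were those of Olfml3 (-2.69), Emilin2 (-1.42) and Matn2 (-1.17). Between BI6727 and DMSO edgeR called 0 of the 14, DESeq2 and voom also 0, and 6 had an unadjusted p under 0.05, beside 6.68% of all genes.

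The filter used for testing needs 4 libraries, so a gene expressed in vehicle alone could not pass it. With filterByExpr 25 of the 37 relatives were tested, 9 were called in the DMSO group against vehicle, 2 higher and 7 lower, and 11 with BI6727, all lower, where 3.23% and 3.71% of the 14604 genes were called lower. Among them, named after their values were seen, Sparcl1, the closest relative of osteonectin, was at 83.3 and 80.1 CPM in vehicle, 9.17 and 5.30 in DMSO replicates 1 and 2, and 4.34 and 4.06 with BI6727. It fell 11.2-fold in the DMSO group (log2 fold change -3.49, edgeR adjusted p = 3.89e-05) and 19.3-fold with BI6727 (edgeR adjusted p = 1.92e-05), which is a larger fold than that of Sparc. Svep1, an adhesion protein, was at 25.2 and 20.4 CPM in vehicle, 1.98 and 1.35 in the DMSO libraries and 0.445 and 0.455 with BI6727 (log2 fold change -3.76 and -5.62 against vehicle, edgeR adjusted p = 3.53e-05 and 1.24e-05), though 13.9% of its exonic bases are overlapped on the other strand. The tenascins Tnr, Tnn and Tnxb were also called lower than vehicle in both groups (log2 fold change -4.76, -3.54 and -1.36 in the DMSO group), while Tnc was not called in either. Tnr was at 6.80 and 5.37 CPM in vehicle and 0.193 and 0.241 in the DMSO libraries. Tnn was at 5.50 and 3.69 CPM in vehicle and 0.483 and 0.289 in the DMSO libraries, so both folds rest on few reads. A gene kept mainly for its level in vehicle could hardly be called other than lower. Sparcl1, at 4.06 to 9.17 CPM, and Tnxb, at 5.73 to 7.34 CPM, were also expressed in every library with TGF-β1. Since these relatives were named after their values were seen, their calls are a description.

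Of 16 receptors for these proteins, 10 were tested, and 2 integrin subunits were called higher in the DMSO group than in vehicle. This was 20% of those tested, beside 5.1% of all genes. The median log2 fold change of the list was 0.62, beside -0.0045 over all genes. Itgb3, which pairs with αv into a receptor for osteopontin, periostin and fibronectin, rose from 6.18 and 4.73 CPM in vehicle to 64.7 and 43.3 in DMSO replicates 1 and 2 and was at 35.5 and 39.2 with BI6727. Its log2 fold change was 3.31 in the DMSO group (SE 0.24, edgeR adjusted p = 0.000177) and 2.78 with BI6727 (SE 0.24, edgeR adjusted p = 0.000337), the largest in this list. Itga5, the fibronectin receptor subunit, was at 185 and 198, 636 and 492, and 526 and 564 CPM and rose in both groups (log2 fold change 1.56 and 1.51, edgeR adjusted p = 0.000441 and 0.000451). The receptor gene for fibronectin was thus called higher in both groups, while Fn1 was not. Sdc4, a heparan sulfate co-receptor for fibronectin, was called lower with BI6727 than in vehicle (log2 fold change -1.08, edgeR adjusted p = 0.00146). This made 3 calls and 30% of the receptors tested, beside 5.31% of all genes. Sdc4 was also lower than vehicle in the DMSO group, but under the fold threshold (log2 fold change -0.85, edgeR adjusted p = 0.00414). Between BI6727 and DMSO it was not called (log2 fold change -0.22, edgeR adjusted p = 0.772).

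Of 10 enzymes that process or crosslink the matrix, 7 were tested and 2 were called higher in the DMSO group than in vehicle, beside 2.56% of all genes. Plau, the urokinase plasminogen activator, had a log2 fold change of 1.55 (edgeR adjusted p = 0.00101) and Bmp1, the procollagen C-proteinase, one of 1.25 (edgeR adjusted p = 0.000845). Both were also called with BI6727, at 1.19 (edgeR adjusted p = 0.00286) and 1.27 (edgeR adjusted p = 0.000732), where 2.34% of all genes were called higher. The median log2 fold change of this list was 0.06 in the DMSO group and 0.24 with BI6727. Between BI6727 and DMSO edgeR, DESeq2 and voom called 0 receptors and 0 enzymes, and 1 gene in each list had an unadjusted p under 0.05, beside 6.68% of all genes.

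**Figure D5:**
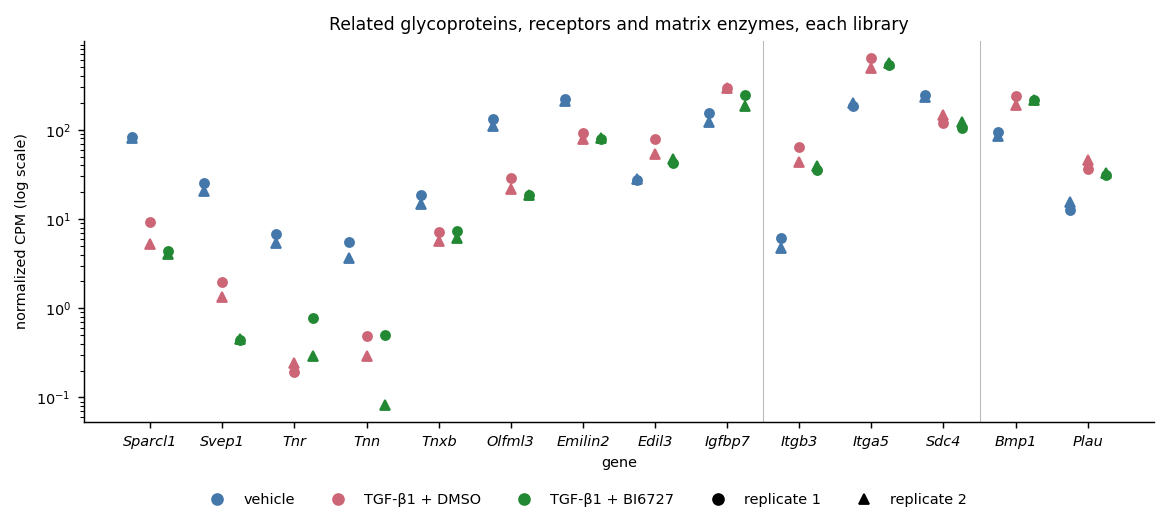
Normalized CPM (log scale) in each library of the named relatives, receptors and matrix enzymes, separated by vertical lines, with colour for the group and shape for the replicate. Sparcl1, Svep1 and Olfml3 have both vehicle libraries far above the other 4, and Itgb3 has both far below, at 6.18 and 4.73 CPM.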

How the data were processed

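RNA from 6 NIH/3T3 libraries was sequenced, 2 each for vehicle, for TGF-β1 plus DMSO and for TGF-β1 plus BI6727. The authors mapped the reads to mm10 with Subjunc, counted them on Gencode M20 genes with featureCounts (Subread 1.6.4) and deposited raw counts per gene without normalization. The strand setting is not given in the sources used here. Groups and replicate numbers were taken from the labels.

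Genes were matched to symbols by Ensembl identifier (54723 of 54752). The filter, 10 CPM or more in over 3 libraries, is the one stated in the study's methods. The thresholds are those the study gives for genes changed by TGF-β1, while its methods state another fold change. The study reports a larger expression profile and more changed genes than were found here, so its gene set was not reproduced. Groups were compared with edgeR 4.0.16 under R 4.3.3 (two-sided quasi-likelihood test, TMM scaling, 1 fit of 6 libraries, 3 residual degrees of freedom), with Benjamini-Hochberg adjustment over all genes tested. Standard errors are the log2 fold change divided by the square root of F. The smallest p of an exact permutation test with 2 libraries a group is 0.333, so none was run. Log2 CPM used a prior count of 1, and length trends a lowess of span 0.3. Intervals cover the spread between these libraries. The test was checked on simulated data in which each gene had the same spread in all 6 libraries. That check does not cover the wider spread of the DMSO group. Positions are those of mm10 in the count table, and repeated 50-base windows were counted in Gencode M21 transcripts.

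The genes, the 3 lists and the tests were chosen with earlier results of these data known. The genes named are all 9, from each list up to 3 called higher and 3 lower in each comparison, the 3 most alike per gene, and Acta2. Relatives tested with filterByExpr alone were named after their values were seen. A gene that this rule also selects is not reported here. Alternatives were DESeq2 1.42.0, its size factors, filterByExpr, no filter beyond 1 count, the compared groups alone, a replicate block, length offsets, voom with sample quality weights (limma 3.58.1), other thresholds and each library left out. A crossed block, and length offsets without a DMSO library, were added after the data were seen.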

Additional observations from a re-analysis of the deposited data

How the results depend on the processing

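Of the log2 fold changes of single genes recomputed under alternatives, 385 kept their direction and their side of the threshold, 12 passed it newly, 23 no longer passed it and 15 changed sign.

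Between BI6727 and DMSO the count of these genes called moved from 0 of 8 to 1 with DESeq2 (Postn), to 2 of 9 with no filter beyond 1 count (Postn and Tgfbi, among 47 of 24904 genes), to 1 with length offsets and a replicate block together (Postn), to 1 with length offsets without DMSO replicate 1 and to 1 without DMSO replicate 2. Leaving out each library in turn, the count ranged from 0 to 2 in that comparison, from 0 to 5 between DMSO and vehicle, and from 1 to 4 between BI6727 and vehicle. The relatives called rose from 4 to 9 with filterByExpr and to 11 with no filter between DMSO and vehicle, from 0 to 1 with no filter between BI6727 and DMSO, and from 4 to 11 with either filter between BI6727 and vehicle, since more genes were tested. With libraries left out they ranged from 1 to 4 between DMSO and vehicle and from 2 to 4 between BI6727 and vehicle. The receptors called were 6 between DMSO and vehicle and 7 between BI6727 and vehicle with no fold minimum, 5 in the latter with no filter, and with libraries left out 1 to 3, 0 to 1 between BI6727 and DMSO, and 0 to 3 between BI6727 and vehicle. The enzymes called between BI6727 and vehicle were 4 with filterByExpr and 4 with no filter, and 0 to 2 with libraries left out in both comparisons with vehicle.

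The sign changed for values near 0 or spread over the DMSO libraries. The Tnc log2 fold change between BI6727 and DMSO was 0.034 with a replicate block, 0.059 with voom and 0.52 with length offsets without DMSO replicate 1, and ranged from -0.58 to 0.69 with libraries left out. Against vehicle, Tnc in the DMSO group was -0.35 with length offsets without DMSO replicate 1 and ranged from -0.59 to 0.69 with libraries left out, and with BI6727 from -0.052 to 0.27. Smoc2 between BI6727 and vehicle was 0.010 with length offsets, 0.013 with the block as well, 0.0089 and 0.0092 with offsets without DMSO replicate 1 or 2, and ranged from -0.19 to 0.13 with libraries left out. Fn1 ranged from -0.33 to 0.96 between DMSO and vehicle, and from -0.28 to 1.02 between BI6727 and DMSO, where it was -0.18 with length offsets without DMSO replicate 2. Postn between DMSO and vehicle had an edgeR adjusted p of 0.0165 with only the groups compared. The causes were not tested.

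Same-numbered replicates were not treated as paired in the main fit, and the labels do not say whether they were. Correlations of their deviations were -0.11 between vehicle and DMSO, 0.047 between vehicle and BI6727 and -0.26 between DMSO and BI6727. With the length trend removed they were -0.049, 0.020 and -0.12. Such correlations cannot settle whether the replicates were paired. With the replicate number as a block, the genes called were 4, 0 and 4 in the comparisons DMSO to vehicle, BI6727 to DMSO and BI6727 to vehicle, and with the crossed pairing also 4, 0 and 4. With 2 libraries a group, the spread between the DMSO replicates limits the precision of Postn, Fn1, Tnc and Tgfbi. Tgfbi had the fewest counts, down to 44 in a library, and the part of depth was not tested.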
